A study of Nothobranchius furzeri with 16 samples.

Results

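The brains of young killifish of the strains GRZ and MZM-0410 were compared at the same age, 5 weeks post hatching (wph). The comparison used the 4 GRZ and the 4 MZM-0410 libraries labelled 5 wph, out of 16 brain libraries of Nothobranchius furzeri, and took in every gene with enough reads to be tested, which were 17994 of the 26739 genes in the count table. The other 8 libraries came from MZM-0410 fish at 12 and 39 wph and are given beside some results as levels only. Per the study's general methods, fish were fasted and killed at one time of day, and total RNA came from brain protein lysates. No group carried a transgene or received a treatment. GRZ is an inbred laboratory strain with a very short lifespan, and MZM-0410 is a longer-lived strain of more recent wild origin, so that fish of equal age stand at unequal points of their expected lives. The sex of the GRZ fish and the number of fish per library were not given in the sources used here, and each library was taken as 1 fish. No batch was given either, so a batch that followed the strains and the strain itself cannot be told apart.

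Glucocorticoids such as cortisol bind a receptor that enters the nucleus and activates genes that include FKBP5, KLF9 and ZBTB16, and they also act on metabolism and on the brain's response to stress. Immediate early genes are switched on within minutes of neuronal firing or of a hormonal or stress stimulus, before any new protein is made. In the adult killifish brain new cells arise from dividing progenitors along the ventricles, and that activity declines as the fish mature.

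Genes carry the symbol of their human orthologue where the study's tables gave one, which was the case for 5178 of the genes tested. Names were at hand for 41.9% of the genes past the threshold but for 27.3% of the others, so counts over a gene list describe its named members only. The symbols rest on the best match to human proteins, and copies of duplicated genes share a symbol. Overlapping and antisense genes can share reads, because counting ignored the strand. Reads with several hits were dropped, which lowers the values of near-identical copies, so the values of all such genes are uncertain.

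The GRZ libraries held 8.8 to 10.6 M counted reads (M stands for mega) and the MZM-0410 libraries 3.93 to 8.24 M, with no overlap between the strains (exact permutation test of the means, two-sided, p = 0.0286, the smallest value that 4 against 4 libraries allow). Genes with at least 1 read numbered 21382 to 21603 in GRZ and 20608 to 21456 in MZM-0410 (exact permutation test, p = 0.114). Neuronal, myelin and glial markers were present in all 8 libraries. GLUL, the glutamine synthetase of glia, was at 1006 to 1288 CPM (read counts scaled to a common library size) in GRZ and 955 to 1069.6 CPM in MZM-0410. The gene named SYT1, a synaptic vesicle protein, stayed at or below 2.35 CPM in all 8 libraries. The genome that the authors aligned to was assembled from GRZ fish, so a better fit of GRZ reads to the reference and a difference between the strains cannot be told apart for single genes.

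Some libraries stood apart within their own strain. In GRZ 2 there were 170 genes above all other GRZ libraries by more than 1.5-fold, out of 15789 genes with a mean over 3 CPM. In GRZ 4 there were 199 above and 202 below, against 37 to 61 in either direction in GRZ 1 and GRZ 3. The MZM-0410 libraries had 61 to 92 genes above and 95 to 189 below, out of 15710. The largest of these MZM-0410 counts were those below in MZM-0410 11 (189) and MZM-0410 15 (157). These libraries had the fewest reads (3.93 and 4.60 M). The genes that set GRZ 2 apart were led by enzymes and transporters of the liver type. ABCB11, the bile salt export pump of liver cells, was at 1.93, 96.3, 0.954 and 1.02 CPM in GRZ 1 to 4 and at 0.763, 56.8, 10 and 16.5 CPM in MZM-0410 11, 12, 14 and 15, so that GRZ 2 and MZM-0410 12 both carried it. SULT2A1, a sulfotransferase of steroids and bile acids, was at 0, 16.2, 0 and 0 CPM in GRZ and 0.763, 10.6, 2.77 and 1.29 CPM in MZM-0410. GRZ 4 held high ARRDC3, an arrestin domain protein, at 92.7, 119.8, 136 and 490.0 CPM in GRZ for one of its copies against 239, 193, 179 and 209 CPM in MZM-0410. These genes were picked after their values were seen.

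The strains separated along the main axis of variation. Of the genes tested, 1823 passed the test at an adjusted p under 0.05 (edgeR quasi-likelihood test with Benjamini-Hochberg adjustment), which is 10.1%, with 979 higher in GRZ (5.44%) and 844 lower (4.69%). Scaled by library totals alone, the balance turned, with 891 higher and 980 lower. Most differences were small, with a median change of 1.54-fold among the genes that rose and 1.46-fold among those that fell, and 259 and 156 genes passed 2-fold. Component 1 of a principal component analysis held 53% of the variance and placed GRZ between 17 and 21.9 and MZM-0410 between -21.6 and -17.4, while component 2, with 15.8%, placed GRZ 2 at -21.9 and MZM-0410 12 at -11.3. Rank correlation between libraries was 0.968 to 0.978 across strains, 0.980 to 0.991 within GRZ and 0.984 to 0.987 within MZM-0410. The counts depended on single libraries. Without MZM-0410 12 they were 599 higher and 456 lower, without MZM-0410 14 they were 650 higher, without MZM-0410 11 they were 562 lower, without GRZ 1 they were 485 lower and without GRZ 2 they were 537 lower, whereas without GRZ 4 they were 1265 and 1245.

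**Figure D1:**
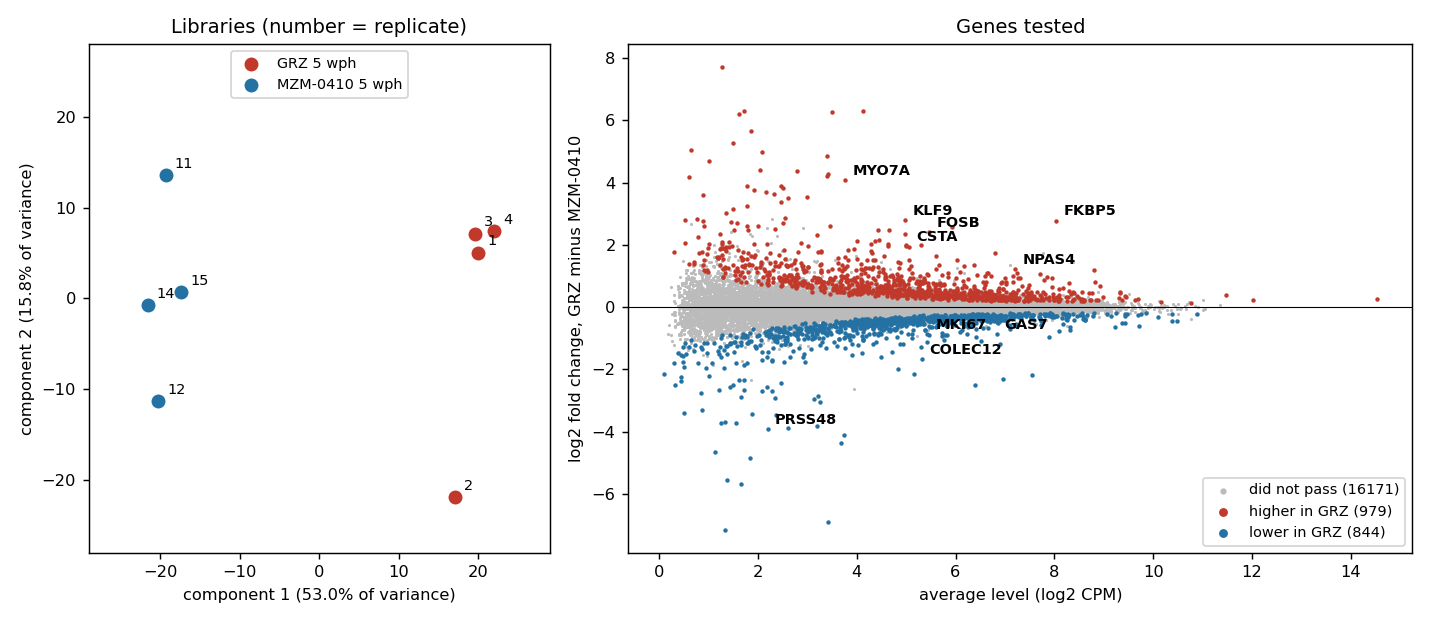
Left: the 8 libraries on the first 2 principal components of log2 CPM (point = library, number = replicate). Right: log2 fold change of GRZ against MZM-0410 over the average level of each of the 17994 genes tested, with the 979 genes that rose in red and the 844 that fell in blue; the strains lie on opposite sides of component 1 and GRZ 2 lies apart on component 2.

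FKBP5, a co-chaperone that restrains the glucocorticoid receptor and is induced by it, was among the most clearly changed genes of the comparison. It was at 415, 444, 508 and 445 CPM in GRZ and 61.8, 56, 49.3 and 96.7 CPM in MZM-0410, so that every GRZ library stood above every MZM-0410 library. The change was 2.78 ± 0.16 on the log2 scale (6.87-fold, adjusted p = 1.24e-06). MZM-0410 fish reached 636 ± 87.3 CPM at 12 wph and 519 ± 161 CPM at 39 wph (mean ± SD, n = 4 here and below), so that the young MZM-0410 group was the lowest of the 4 groups. KLF9, a transcription factor induced by glucocorticoids and thyroid hormone, was at 44, 47.8, 47.4 and 67.8 CPM in GRZ and 8.14, 5.03, 6.83 and 10.9 CPM in MZM-0410 (log2 change 2.79 ± 0.21, adjusted p = 8.17e-06). Its level in older MZM-0410 fish was 55.4 ± 8.94 and 67.4 ± 26.7 CPM. FOSB, which pairs with JUN proteins in the AP-1 complex, was at 77, 66.3, 65.7 and 75.7 CPM against 13.7, 10.8, 10.9 and 19.1 CPM (log2 change 2.40 ± 0.15, adjusted p = 2.36e-06) and at 70.6 ± 14.9 and 80.3 ± 11.1 CPM in the older groups. In all 3 genes the strains did not overlap, which the naming rule required of its genes of smallest p and of largest change. Of all genes tested, 16.7% had no overlap.

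MYO7A, an unconventional myosin known from hair cells and photoreceptors, was far higher in GRZ. It was at 20.4, 18.2, 26 and 25.6 CPM in GRZ and 1.02, 1.79, 1.07 and 1.07 CPM in MZM-0410 (16.8-fold, log2 change 4.07 ± 0.22, adjusted p = 4.87e-07). Unlike FKBP5 it was also low in MZM-0410 at 12 wph (1.42 ± 0.253 CPM) and, in 3 of 4 libraries, at 39 wph (4.1 ± 5.57 CPM, SD above the mean because of 1 library). All 4 GRZ libraries carried it at a like level. CSTA, named for cystatin A, an inhibitor of cysteine proteases, was at 56.3, 45.8, 45.1 and 54.1 CPM against 8.91, 14.5, 13.7 and 14.4 CPM (log2 change 1.94 ± 0.14, adjusted p = 6.67e-06). RTN4RL2, a receptor of the Nogo receptor family that limits axon growth, was at 80.2, 66.6, 70.5 and 68.7 CPM against 26, 21.2, 19 and 26.4 CPM (log2 change 1.63 ± 0.11, adjusted p = 4.91e-06). EIF4G2, a translation initiation factor, was at 303 ± 20.7 CPM in GRZ against 154 ± 11.4 CPM in MZM-0410 (log2 change 0.97 ± 0.07, adjusted p = 6.30e-06). VCAN, the matrix proteoglycan versican, was at 10.2, 11.7, 8.68 and 10.8 CPM against 1.27, 2.27, 3.2 and 3 CPM, and AHNAK2, a large scaffold protein, at 25.6, 33.3, 26.6 and 30 CPM against 7.63, 4.67, 4.69 and 12 CPM. Their log2 changes were 2.07 ± 0.23 and 2.04 ± 0.24.

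Among the genes that were lower in GRZ, GAS7, a growth arrest protein of neurons, was at 75.8, 85.4, 82.7 and 79.9 CPM in GRZ and 154, 144, 145 and 146 CPM in MZM-0410 (log2 change -0.87 ± 0.06, adjusted p = 6.30e-06), and IGSF8, a membrane protein of the immunoglobulin family, was at 9.33, 11.4, 10.5 and 15.1 CPM against 34.9, 34.9, 32.2 and 37.1 CPM (log2 change -1.59 ± 0.14, adjusted p = 2.39e-05). COLEC12, a scavenger receptor, was at 19.7, 14.8, 19.3 and 24.6 CPM against 47.8, 64.7, 50.1 and 83.8 CPM, a log2 change of -1.67 ± 0.18. The levels of these genes in MZM-0410 at 12 wph were 159 ± 9.59, 33.9 ± 2.82 and 58.5 ± 7.56 CPM in turn, all above the GRZ libraries. PRSS48, named for a serine protease, showed the largest fall among the named genes given here, from 10.2 ± 3.78 CPM in MZM-0410 to 0.655 ± 0.214 CPM in GRZ (log2 change -3.92 ± 0.34, adjusted p = 2.43e-05).

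Other genes that fell by the naming rule were of mixed function. UNC5C, a netrin receptor that repels axons, was at 21.6, 20.9, 22.4 and 29.4 CPM against 66.2, 61.7, 57.8 and 41.8 CPM (log2 change -1.28 ± 0.15), and 2 further copies had log2 changes of -0.61 ± 0.13 and -0.33 ± 0.08. DNAH10, a heavy chain of the motor that beats cilia, was at 28.1, 26, 22.3 and 22.2 CPM against 44.5, 46.1, 43.3 and 45.9 CPM. CPT1A, which admits fatty acids to mitochondria, was at 109, 104, 120.0 and 100.4 CPM against 152, 167, 172 and 161 CPM. NTSR1, a receptor for the peptide neurotensin, was at 2.73, 4.6, 4.29 and 3.5 CPM against 13.5, 7.06, 10.9 and 9.65 CPM. CRISPLD1 was at 2.85, 1.6, 2.29 and 2.71 CPM against 7.89, 9.81, 6.83 and 6 CPM. None of these ranges overlapped between the strains, which the naming rule required of its genes of smallest p and of largest change. The log2 changes were -0.87 for DNAH10, -0.60 for CPT1A, -1.41 for NTSR1 and -1.72 for CRISPLD1.

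To see which processes these genes belonged to, 50 gene lists were counted, each by its named members. A gene could stand in several lists. Over all 5178 named genes tested, 8.86% were higher and 5.89% lower in GRZ, and the median log2 change was 0.02 against 0.0004 over all genes. Shares of members that passed are read against these values. The lists were chosen with earlier results of these data known, so a share above these values is a description and no separate support. Of all 17994 genes tested, 3003 (16.7%) had no overlap between the libraries of the strains. Genes past the threshold were selected by that test, so a lack of overlap among them is no separate support. Among lists with at least 10 tested members, the share that rose was highest for immediate early genes (68.8%), glucocorticoid response genes (48.6%), neuropeptides and pituitary hormones (46.2%) and DNA repair and damage response genes (41.4%). The share that fell was highest for cell cycle genes (38.6%). Lists of the ribosome, the proteasome, mitochondria and splicing stayed near or under the background.

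**Figure D2:**
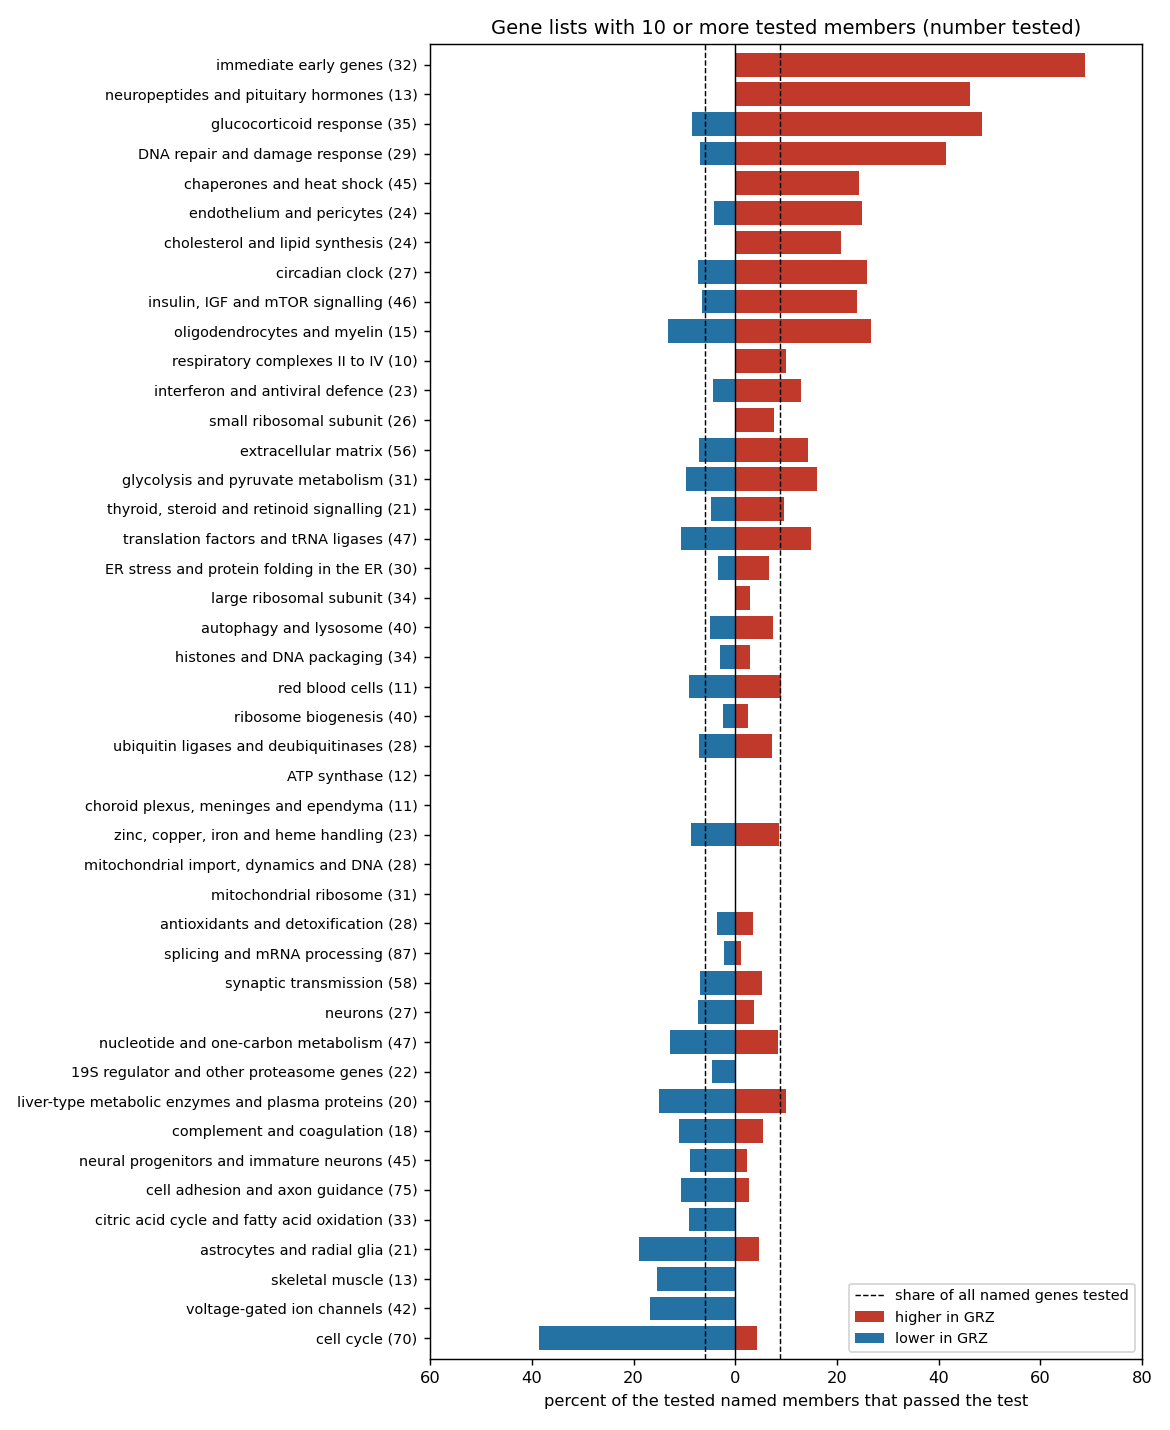
Share of the tested named members of each list that were higher (red, to the right) or lower (blue, to the left) in GRZ; the number of tested members stands in brackets, and the dashed lines mark the shares over all named genes tested, 8.86% higher and 5.89% lower. Immediate early genes stand at the top with 68.8% higher and cell cycle genes at the bottom with 38.6% lower. The lists were chosen with earlier results of these data known.

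Of the glucocorticoid response genes, 17 of 35 tested genes rose (48.6%), 3 fell (8.57%) and 15 did not pass, and the median log2 change was 0.39. Over all named genes 8.86% rose and 5.89% fell. The 17 that rose did so by 0.28 to 2.79 on the log2 scale. None of them overlapped between the strains (16.7% of all genes tested had no overlap). Besides FKBP5 and KLF9 they held 2 of 3 copies of ZBTB16, a transcription factor strongly induced by glucocorticoids. One was at 32.4, 39.4, 41 and 42.8 CPM in GRZ and 13.5, 17.5, 14.7 and 18.9 CPM in MZM-0410 (log2 change 1.25 ± 0.13, adjusted p = 8.33e-05), while the other had a log2 change of 1.20. IRS2, the adaptor that passes signals on from insulin receptors, was at 174, 152, 156 and 184 CPM against 95.4, 84.2, 72.5 and 91.1 CPM (log2 change 0.95 ± 0.09, adjusted p = 6.06e-05), and its other copy had a log2 change of 1.08. DDIT4 (REDD1), an inhibitor of the mTOR kinase, was at 103, 136, 80.1 and 80.1 CPM against 42, 37.3, 38.8 and 42.5 CPM (log2 change 1.32 ± 0.16). Further members were chosen after their values were seen. HSD11B2, which inactivates cortisol, had a log2 change of 0.85, and CRHBP, which binds corticotropin-releasing hormone, had 0.78 for one copy. The mineralocorticoid receptor gene NR3C2 fell by 0.45 for one copy, and the other genes that fell were PER1 and PDK4, by 0.81 and 0.40. Of these 3 falls only that of PDK4 had no overlap between the strains. The receptor gene NR3C1 did not pass. The count of falls was 0 without MZM-0410 15, GRZ 1 or GRZ 2 and 1 without MZM-0410 11, MZM-0410 12 or GRZ 3, whereas the count of rises was 12 to 16 without any 1 library.

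Immediate early genes shifted upward, with 22 of 32 tested genes higher in GRZ (68.8%, against 8.86% of all named genes). None was lower, 10 did not pass, and the median log2 change was 0.77. The range of the 22 was 0.33 to 2.40 on the log2 scale. Of the 22, 21 had no overlap between the strains (against 16.7% of all genes tested). NPAS4, a transcription factor that answers neuronal calcium signals, was at 215, 208, 174 and 219 CPM in GRZ and 93.7, 79.9, 82.1 and 95.6 CPM in MZM-0410 (log2 change 1.21 ± 0.09, adjusted p = 8.17e-06). ZFP36 (tristetraprolin), which speeds the decay of inflammatory mRNAs, was at 64.2, 69.3, 43.8 and 63.7 CPM against 20.9, 13.3, 13.2 and 13.5 CPM (log2 change 2.00 ± 0.18, adjusted p = 2.79e-05). CSRNP1, a nuclear protein of the immediate early class, was at 197, 224, 185 and 215 CPM against 89.8, 90.2, 100.5 and 99.7 CPM (log2 change 1.11 ± 0.08, adjusted p = 6.30e-06), and its other copy had a log2 change of 0.97. The rise was not shared by the best known members alike. FOS was at 31.3, 32.5, 20.9 and 32.4 CPM against 15.8, 14.2, 18.8 and 22.7 CPM, so that GRZ 3 fell within the MZM-0410 range (log2 change 0.72 ± 0.18, adjusted p = 0.0233). This call was lost without MZM-0410 11, 12 or 14 (adjusted p = 0.0693, 0.0858 and 0.0524) and without GRZ 1 or GRZ 2 (0.0548 and 0.0615). EGR1 did not pass, at 89.4, 90.7, 83 and 94.7 CPM against 80.9, 79.3, 80.2 and 78 CPM (log2 change 0.16 ± 0.06, adjusted p = 0.133), and JUN had a log2 change of 0.10 ± 0.12. At 12 wph MZM-0410 fish were at 149 ± 30.6 CPM for NPAS4, 48.9 ± 13.7 CPM for ZFP36 and 242 ± 33.6 CPM for CSRNP1, and in the list as a whole the 5 wph MZM-0410 libraries were the lowest of the 16. Leaving out any 1 library gave 16 to 23 genes that rose.

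**Figure D3:**
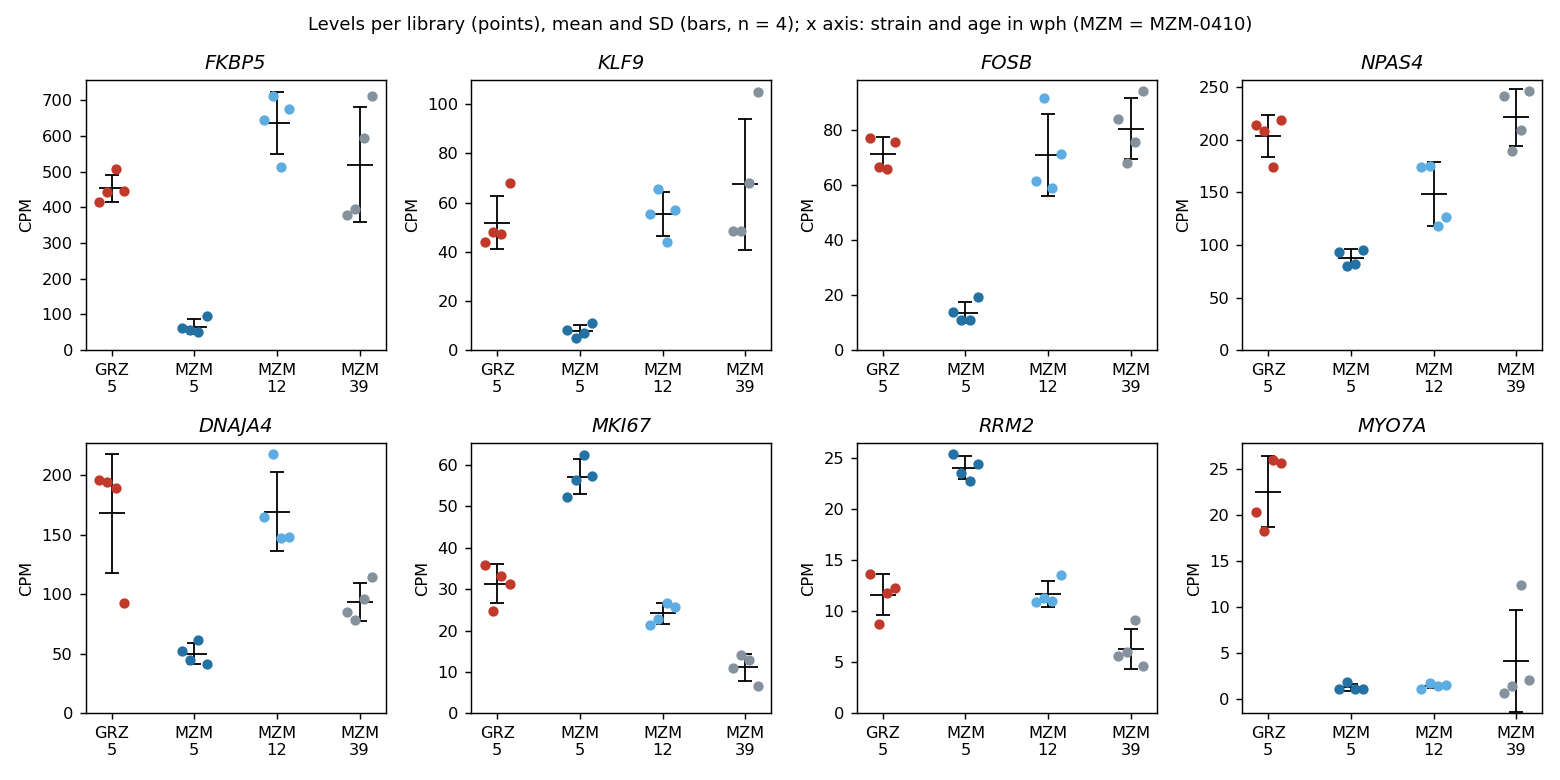
Level in CPM (y axis, linear) of 8 genes in all 16 libraries, by strain and age in wph on the x axis; points are libraries, the bar is the mean and the whiskers the SD (n = 4). FKBP5, KLF9, FOSB and NPAS4 are lowest in MZM-0410 at 5 wph, MKI67 and RRM2 are highest there, MYO7A is high in GRZ, and DNAJA4 is lower in GRZ 4 (93.2 CPM) than in the other GRZ libraries.

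**Figure D4:**
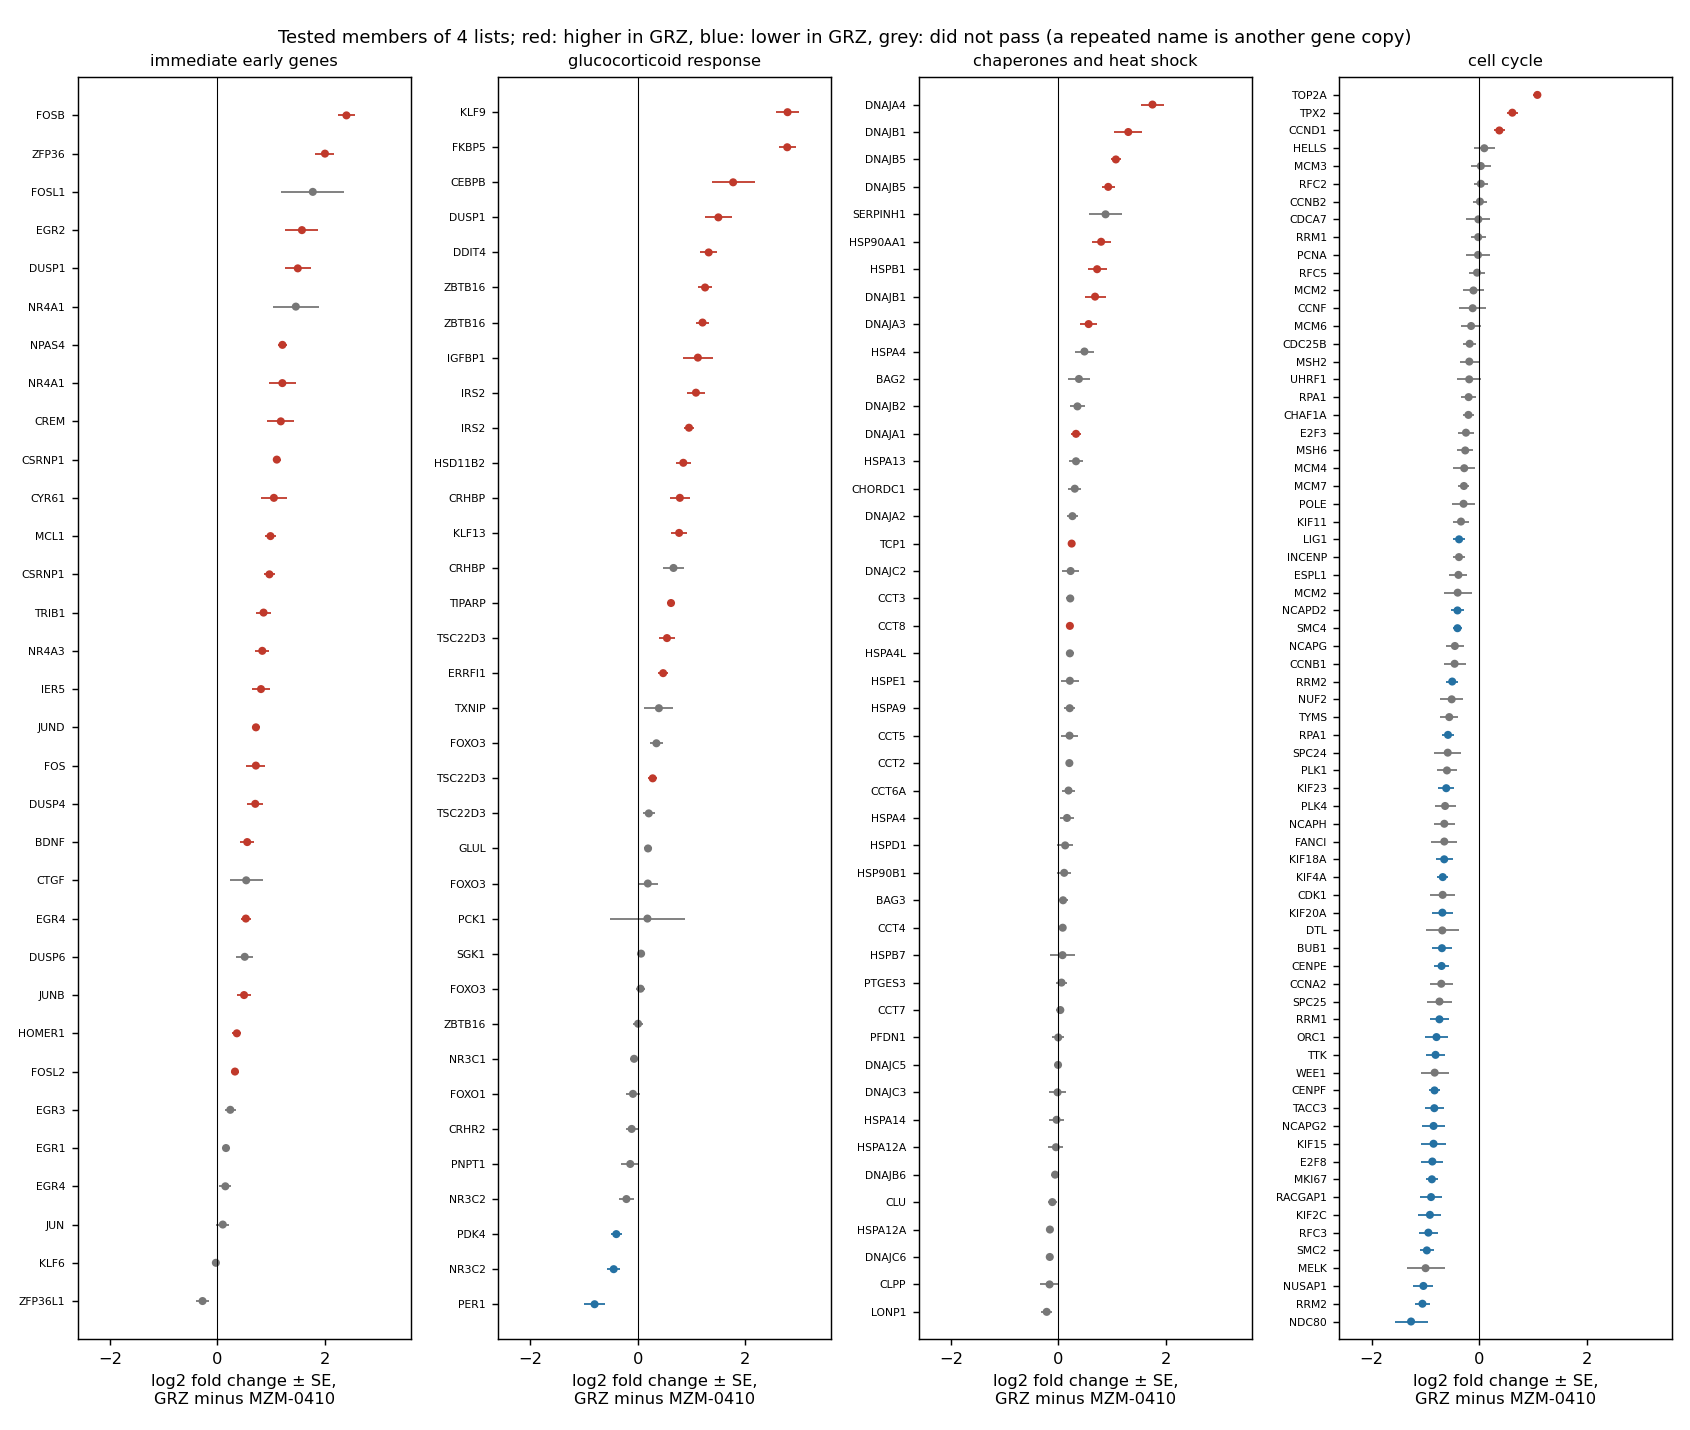
Log2 fold change ± SE of GRZ against MZM-0410 for every tested named member of 4 gene lists, sorted within each list; red genes rose, blue genes fell and grey genes did not pass. In the immediate early list 22 of 32 genes are red, in the glucocorticoid response list 17 of 35 are red and 3 blue, in the chaperone list 11 of 45 are red, and in the cell cycle list 27 of 70 are blue and 3 red.

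Of 27 tested genes of the circadian clock 7 rose (25.9%), 2 fell (7.41%) and 18 did not pass (median log2 change 0.08), so that the share that fell was near the 5.89% over all named genes. The study's general methods state that fish were always killed at one time of day, without naming the GRZ fish. NR1D2 (REV-ERB beta), a nuclear receptor that represses clock genes, was at 43.5, 42.8, 43.7 and 62.8 CPM in GRZ and 13.2, 11.5, 16 and 9 CPM in MZM-0410 for one copy (log2 change 1.96 ± 0.17, adjusted p = 2.79e-05). A further copy was at 167, 190.2, 170.1 and 196 CPM against 119, 83.8, 107 and 109 CPM (log2 change 0.79 ± 0.10), and 2 more copies did not pass. NOCT (nocturnin), whose mRNA cycles strongly over the day in many tissues, was at 28, 23.5, 32.2 and 21.2 CPM against 10.9, 10.8, 12.8 and 10.5 CPM (log2 change 1.22 ± 0.14, adjusted p = 0.000276). PER3, a period gene of the negative arm of the clock, moved the other way, at 96, 102, 94.9 and 128 CPM against 174, 159.7, 169 and 178 CPM (log2 change -0.70 ± 0.09, adjusted p = 0.000587). These 4 genes did not overlap between the strains. PER1, which the text names after its value was seen, fell by 0.81 as well, with overlap between the strains. The count of falls was 1 without MZM-0410 11, MZM-0410 15, GRZ 1, GRZ 2 or GRZ 3 and was 5 without GRZ 4.

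Among genes of DNA repair and the damage response, the members that rose were mainly inhibitors of the cell cycle or of mTOR, stress kinases and members of the GADD45 family. Of 29 tested genes 12 rose (41.4%), 2 fell (6.9%) and 15 did not pass, with a median log2 change of 0.38. Over all named genes 8.86% rose and 5.89% fell, so that the share that fell was near the background. PLK2, a kinase induced by neuronal activity, was at 179, 173, 158 and 147 CPM in GRZ and 98.2, 79.2, 96.9 and 104 CPM in MZM-0410 (log2 change 0.80 ± 0.09, adjusted p = 0.000232). SESN1, a stress-induced protein that restrains mTOR, was at 102, 113, 86.5 and 100.0 CPM against 61.6, 61.7, 61.7 and 63.2 CPM (log2 change 0.69 ± 0.09, adjusted p = 0.000399). PLK3, a related stress kinase, was at 107, 112, 108 and 97.1 CPM against 78.9, 75.7, 76.4 and 69.7 CPM (log2 change 0.49 ± 0.07). In each of these the strains were fully apart. GADD45B, a stress sensor that is also an activity-regulated gene in neurons, had a large change from a low level, 3.19, 3.3, 4.58 and 4.07 CPM against 1.02, 0.239, 0.853 and 0.858 CPM (log2 change 2.47 ± 0.36, adjusted p = 0.00125). CDKN1A (p21), an inhibitor of the kinases that drive the cell cycle, was called higher for both copies. One copy was at 19.2, 25.2, 26.6 and 51.6 CPM against 14, 17.2, 15.1 and 15.4 CPM (log2 change 0.96 ± 0.26, adjusted p = 0.0349), with GRZ 4 far above the rest. That call was lost without any 1 MZM-0410 library (adjusted p = 0.075 to 0.0909). The other copy was at 6.37, 7, 7.54 and 6.1 CPM against 5.09, 2.03, 2.77 and 1.29 CPM (log2 change 1.33 ± 0.30, adjusted p = 0.0167, 0.0674 without MZM-0410 12). ATM, a kinase that senses DNA breaks, was among the 2 genes that fell, by 0.45. Only 1 fall was called without MZM-0410 11, MZM-0410 14, GRZ 1 or GRZ 2. The rises numbered 8 to 12 when any 1 library was left out.

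Cell cycle genes that passed the test were mostly lower in young GRZ brains. Of 70 tested genes 27 fell (38.6%), 3 rose (4.29%) and 40 did not pass, against 5.89% and 8.86% of all named genes. The median log2 change was -0.53, and 63 of the 70 had negative values. The falls ranged from 0.37 to 1.27 on the log2 scale. Of the 27 genes, 26 had no overlap between the strains (against 16.7% of all genes tested). MKI67, the standard marker of dividing cells, was at 36, 24.8, 33.1 and 31.3 CPM in GRZ and 52.2, 56.5, 62.5 and 57.5 CPM in MZM-0410 (log2 change -0.88 ± 0.11, adjusted p = 0.000341). RRM2, the regulated subunit of the enzyme that makes DNA precursors, was at 13.7, 8.81, 11.8 and 12.3 CPM against 25.4, 23.6, 22.8 and 24.4 CPM (log2 change -1.05 ± 0.13, adjusted p = 0.00042), and CENPF, a protein of the kinetochore, at 44.3, 34.2, 43 and 31.6 CPM against 66.9, 70.6, 65.5 and 67.5 CPM (log2 change -0.83 ± 0.10, adjusted p = 0.000446). At 12 and 39 wph the levels in MZM-0410 were 24.2 ± 2.49 and 11.1 ± 3.22 CPM for MKI67 and 11.7 ± 1.26 and 6.36 ± 1.96 CPM for RRM2, so that the young MZM-0410 group was the highest of the 4 groups. In bulk brain RNA fewer dividing cells and less RNA per dividing cell cannot be told apart. Other genes of division fell as well, with KNL1, the kinetochore scaffold, at 12.1, 10.8, 13 and 11 CPM against 21.1, 25.6, 24.7 and 23.4 CPM and CCNB3, a B-type cyclin, at 2.62, 2.1, 2.67 and 1.92 CPM against 5.34, 7.18, 5.76 and 6.65 CPM.

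The 3 members that rose had the opposite direction to the 27. TOP2A is the topoisomerase of dividing cells, but the symbol rests on a best match and whether the killifish gene is another topoisomerase was not tested. The gene so named was at 131, 129, 135 and 146 CPM in GRZ and 55.7, 61.7, 65.5 and 70.8 CPM in MZM-0410 (log2 change 1.09 ± 0.08, adjusted p = 6.30e-06), and the others were TPX2 and CCND1, with log2 changes of 0.62 and 0.38. In MZM-0410 at 12 and 39 wph the gene named TOP2A was at 52.6 ± 23.3 and 37.4 ± 9.71 CPM. MCM3, a replication licensing factor, and PCNA, the sliding clamp of DNA polymerase, both chosen after their values were seen, did not pass, with log2 changes of 0.03 ± 0.19 and -0.02 ± 0.22. SOX11, a transcription factor of immature neurons, was at 54.8 ± 2.26 CPM against 54.5 ± 1.99 CPM and did not pass the test. The number of cell cycle genes that fell was 14 without MZM-0410 12 or MZM-0410 14, 17 without GRZ 2 and 17 when all libraries were thinned to the depth of the smallest one.

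**Figure D5:**
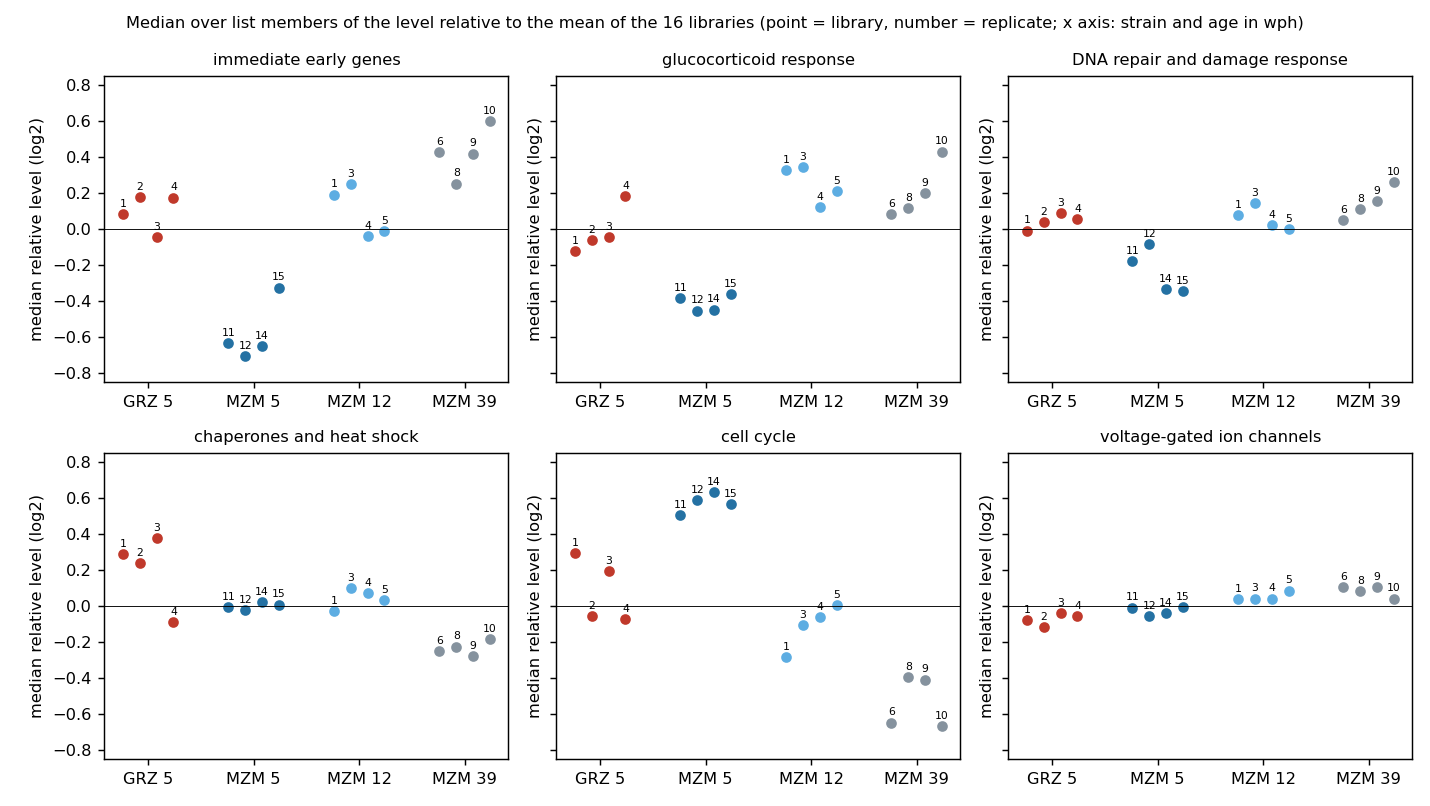
For 6 gene lists, the median over members of the level relative to the mean of the 16 libraries (log2 scale, y axis), by strain and age in wph (x axis); points are libraries and numbers their replicates. The 5 wph MZM-0410 libraries are the lowest for immediate early and glucocorticoid response genes and the highest for the cell cycle, and GRZ 4 stands below the other GRZ libraries for chaperones (-0.09 against 0.24 to 0.38).

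Of 45 tested genes of chaperones and the heat shock response 11 rose (24.4%, against 8.86% of all named genes). None fell and 34 did not pass, with a median log2 change of 0.21. Of the 11 that rose 7 had no overlap between the strains (against 16.7% of all genes tested). DNAJA4, a co-chaperone of HSP70 proteins, was at 196, 195, 189 and 93.2 CPM in GRZ and 52.2, 44.6, 61.9 and 41.8 CPM in MZM-0410, with GRZ 4 at under 100 CPM but still above MZM-0410 (log2 change 1.75 ± 0.21, adjusted p = 0.000349). DNAJB1, the main cytosolic co-chaperone of heat shock, was at 31.3, 33.4, 27.9 and 14.5 CPM against 8.65, 11.5, 14.9 and 7.93 CPM, where GRZ 4 fell into the MZM-0410 range (log2 change 1.30 ± 0.26, adjusted p = 0.00843). HSP90AA1, the inducible HSP90 chaperone, had the same shape, with 673, 683, 601 and 328 CPM against 328, 323, 361 and 302 CPM (log2 change 0.79 ± 0.18, adjusted p = 0.0161). DNAJB5 did not follow this pattern and was high in every GRZ library, at 285, 263, 307 and 263 CPM against 153, 109, 131 and 140.0 CPM for one copy (log2 change 1.07 ± 0.09, adjusted p = 2.39e-05) and 22.8, 27, 26.6 and 23.7 CPM against 13.7, 11.6, 12.2 and 15.4 CPM for the other (log2 change 0.93 ± 0.12). Without GRZ 4 the number of chaperone genes that rose was 21, and it was 5 without MZM-0410 12 and 7 without MZM-0410 11, 14 or 15. The summed level of the tested members was 3713 CPM in GRZ 4, 4791 to 4949 CPM in the other GRZ libraries and 3580 to 3994 CPM in MZM-0410.

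Genes of insulin, IGF and mTOR signalling mostly rose where they changed, among them both adaptors and inhibitors of the route. Of 46 tested genes 11 rose (23.9%), 3 fell (6.52%) and 32 did not pass (median log2 change 0.10). When any 1 library was left out 9 to 15 rose and 2 to 4 fell. Over all named genes 8.86% rose and 5.89% fell, so that the share that fell was near the background. PIK3R1, the regulatory subunit of PI3 kinase, was at 303, 324, 327 and 343 CPM in GRZ and 206, 224, 211 and 223 CPM in MZM-0410 (log2 change 0.58 ± 0.06, adjusted p = 6.61e-05). The strains did not overlap in it. The remaining genes that rose included the copies of IRS2, DDIT4 and SESN1 given above, which were also counted in the glucocorticoid or damage response lists. AKT1 and IGFBP2 were among those that fell, by 0.26 and 0.56.

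Of the list of neuropeptides and pituitary hormones, 13 genes were tested. Of these 6 rose (46.2%, against 8.86% of all named genes), 0 fell and 7 did not pass (median log2 change 0.37). The rises numbered 4 to 6 when any 1 library was left out and 4 in the fit of all 16 libraries. PCSK1, a protease that cuts prohormones into peptides, was at 219, 229, 245 and 237 CPM in GRZ and 169, 159, 163 and 164 CPM in MZM-0410 (log2 change 0.50 ± 0.05, adjusted p = 0.000141). VGF, a precursor of secreted peptides that neurons raise with activity, was at 135, 139, 153 and 164 CPM against 101, 97.3, 95.6 and 96.9 CPM (log2 change 0.59 ± 0.07, adjusted p = 0.000247). SCG2 (secretogranin II), a protein of secretory vesicles, rose in both copies, by 0.40 and 0.37 on the log2 scale. These values did not overlap between the strains. GH1 (growth hormone), a pituitary product, was at 63, 48, 36.6 and 9.37 CPM against 9.93, 1.79, 0.213 and 18.9 CPM, so that GRZ 4 lay within the MZM-0410 range (log2 change 2.47 ± 0.70, adjusted p = 0.0438). The call held only without GRZ 4 or MZM-0410 15, with adjusted p = 0.0727 to 0.128 without any other library, and 0.192 with DESeq2. MZM-0410 fish at 12 wph were at 215 ± 239.9 CPM. How much of the pituitary stayed attached to each brain was not tested, and no gene named POMC or PRL was among those tested.

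The shares of neuronal genes that passed the test lay near or under those over all named genes. Of the 27 neuronal marker genes 1 rose (3.7%), GAD2, and 2 fell (7.41%), against 8.86% and 5.89% over all named genes. The rise was lost without any 1 library other than MZM-0410 14 and GRZ 4 (adjusted p = 0.0674 to 0.128), and the fall of ENO2 without any 1 library at all (0.0541 to 0.135). Of 58 genes of synaptic transmission 3 rose (5.17%), 4 fell (6.9%) and 51 did not pass. The medians of both lists were 0.02 and -0.06 on the log2 scale. SNAP25, a SNARE protein of the presynaptic membrane, was at 844, 885, 873 and 836 CPM in GRZ and 1001, 969, 1003 and 952 CPM in MZM-0410 (log2 change -0.20 ± 0.04, adjusted p = 0.0131), a small difference with no overlap. GABRD, a subunit of extrasynaptic GABA receptors, was at 185, 163, 187 and 197 CPM against 210.5, 250.2, 235 and 237 CPM (log2 change -0.36 ± 0.07). Without MZM-0410 12, MZM-0410 14, GRZ 1 or GRZ 2 only 2 of the synaptic genes fell. The genes of transmission that rose were SYT4, SHANK2 and HOMER1, by 0.44, 0.33 and 0.36, of which HOMER1 and SYT4 are known to answer neuronal activity. RBFOX3 and ELAVL3, general markers of neurons, did not pass, with log2 changes of -0.23 ± 0.07 and -0.01 ± 0.06.

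Of 42 tested genes of voltage-gated ion channels 7 fell (16.7%, against 5.89% of all named genes). None rose, 35 did not pass, and the median log2 change was -0.02. The gene with the smallest p was a copy of CACNA1B, the pore of N-type calcium channels, at 135, 143, 139 and 152 CPM in GRZ and 189.6, 168, 181 and 179.9 CPM in MZM-0410 (log2 change -0.34 ± 0.06, adjusted p = 0.00492). SCN8A, a sodium channel of axon initial segments, was at 146, 152, 160.1 and 159 CPM against 175, 197, 182 and 197 CPM (log2 change -0.29 ± 0.06, adjusted p = 0.0113). The 7 falls were small, 0.18 to 0.40 on the log2 scale. They had no overlap between the strains (as had 16.7% of all genes tested). The count was 2 without MZM-0410 11, 4 without MZM-0410 12 or 15 and 3 without GRZ 1 or GRZ 2, and genes that rose numbered 1 without MZM-0410 14 or 15 and 2 without GRZ 4.

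Glial genes moved in both directions. Of 21 tested genes of astrocytes and radial glia 4 fell and 1 rose. The share that fell was above the 5.89% over all named genes, and the share that rose was under the 8.86%. When any 1 library was left out 3 to 4 fell. The number that rose was 0 without any 1 library other than MZM-0410 14, GRZ 1 and GRZ 4, and 2 without GRZ 1. S100B, a calcium-binding protein of glia, was at 729, 623, 769.5 and 535 CPM in GRZ and 936, 1157, 1097 and 833 CPM in MZM-0410 (log2 change -0.61 ± 0.12, adjusted p = 0.00696), and SPARCL1, a matrix protein that astrocytes secrete, at 16.3, 13.6, 15.1 and 12.9 CPM against 22.6, 19.4, 20.1 and 19.3 CPM (log2 change -0.49 ± 0.11, adjusted p = 0.0182, and 0.0524 on counts thinned to equal depth). GFAP, the intermediate filament of astrocytes and radial glia, varied widely in GRZ, at 651, 469, 512 and 319 CPM against 466, 521, 491 and 511 CPM (log2 change -0.03 ± 0.16, adjusted p = 0.919). Of 15 tested genes of oligodendrocytes and myelin 4 rose (26.7%) and 2 fell (13.3%), against 8.86% and 5.89% of all named genes. Without MZM-0410 12, 14 or 15 or GRZ 2 only 2 rose, and the number that fell was 0 without GRZ 1 and 1 to 3 without any other library. GPR37, a receptor of maturing oligodendrocytes, was at 34.8, 35.2, 38.2 and 33.6 CPM against 19.1, 25.2, 20.1 and 21.4 CPM (log2 change 0.70 ± 0.10, adjusted p = 0.00135). MBP, a main protein of the myelin sheath, was at 374, 432, 373 and 405 CPM against 491, 551, 443 and 433 CPM for the copy that was called (log2 change -0.28 ± 0.08, adjusted p = 0.0467), a call that was lost without MZM-0410 11, 12 or 14 (adjusted p = 0.102, 0.12 and 0.0509) and without GRZ 1, 3 or 4 (0.125, 0.11 and 0.0502). Of the 9 tested genes of microglia and macrophages 0 passed in edgeR and 0 in DESeq2, and 2 had an unadjusted p under 0.05, while 1 rose without MZM-0410 14 or GRZ 4.

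Genes of blood vessels and of the matrix contained some of the larger changes. Of 24 tested genes of endothelium and pericytes 6 rose (25.0%), 1 fell (4.17%) and 17 did not pass, with a median log2 change of 0.29. The rises numbered 4 to 8 when any 1 library was left out. Over all named genes 8.86% rose and 5.89% fell. MFSD2A, which carries omega-3 lipids across the blood-brain barrier, rose in all 3 of its tested copies. The first was at 21.2, 21.1, 16.4 and 16 CPM in GRZ and 6.87, 6.1, 8.75 and 8.15 CPM in MZM-0410 (log2 change 1.33 ± 0.16, adjusted p = 0.000334), and the others had log2 changes of 0.66 ± 0.14 and 0.72 ± 0.16. SLC2A1, the glucose transporter of the barrier, was at 126, 124, 129 and 114 CPM against 76.1, 85.1, 102 and 81.3 CPM (log2 change 0.51 ± 0.08, adjusted p = 0.00274). The single fall, SLCO1C1, a transporter of thyroid hormone, was by 0.57 ± 0.15 and was not called without MZM-0410 12, MZM-0410 14, GRZ 1 or GRZ 3. Of 56 genes of the extracellular matrix 8 rose (14.3%), 4 fell (7.14%) and 44 did not pass, with a median of 0.10. The share that fell was near that over all named genes. Only 5 rose without MZM-0410 11, 12 or 14 or without GRZ 2. Copies of collagen VI genes went both ways. COL6A1 was at 22.6, 26, 22.6 and 23.5 CPM against 17.3, 12.6, 13.7 and 12.6 CPM (log2 change 0.76 ± 0.12), and the copies of COL6A2 are given with the other duplicated genes.

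In the list of cholesterol and lipid synthesis 5 of 24 tested genes were higher (20.8%, against 8.86% of all named genes). The 5 included ABCA1 and LPL, which are not enzymes of lipid synthesis. None was lower and 19 did not pass (median log2 change 0.19). SREBF1, the transcription factor that switches on fatty acid synthesis, was at 224, 249.6, 172 and 174 CPM in GRZ and 99, 108, 105 and 117 CPM in MZM-0410 (log2 change 0.93 ± 0.12, adjusted p = 0.000546). FASN (fatty acid synthase), its classical target, was at 391.7, 386, 356 and 262 CPM against 227, 222, 224 and 239 CPM (log2 change 0.61 ± 0.11, adjusted p = 0.00437), lowest in GRZ 4. ABCA1, which exports cholesterol, was at 497, 613, 493 and 773 CPM against 369, 364, 360.3 and 377 CPM (log2 change 0.69 ± 0.12, adjusted p = 0.00414), here highest in GRZ 4. Without GRZ 4 the number that rose was 8, and without GRZ 2 1 gene fell. Of 33 genes of the citric acid cycle and fatty acid oxidation 3 fell (9.09%, against 5.89% of all named genes) and 0 rose. Those that fell included CPT1A, given above, and ACAD9, which fell by 0.54 ± 0.13. The ACAD9 call was lost without MZM-0410 11, MZM-0410 15 or GRZ 1 (adjusted p = 0.0555, 0.0557 and 0.0566). In this list 5 genes fell without GRZ 3, and 1 rose without MZM-0410 15 and 2 without GRZ 4.

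Few genes of the ribosome, the proteasome, splicing and the mitochondrial lists given here passed the test at this age. Of 26 tested genes of the small ribosomal subunit 2 rose (7.69%) and of 34 of the large subunit 1 rose (2.94%), against 8.86% of all named genes. Of 31 of the mitochondrial ribosome 0 passed in edgeR or DESeq2 (4 had an unadjusted p under 0.05). No gene of these lists fell. The number that rose in the small subunit was 0 without GRZ 2 and 1 without MZM-0410 11, 12 or 15 or GRZ 1 or 3. In the large subunit 2 rose without MZM-0410 14, 3 with DESeq2 and 3 in the fit of all 16 libraries, and 1 fell without MZM-0410 12. In the mitochondrial ribosome 2 rose without GRZ 4. RPL3, a core protein of the large subunit, was at 772 ± 11.6 CPM in GRZ and 613 ± 49.3 CPM in MZM-0410 (log2 change 0.33 ± 0.06, adjusted p = 0.00396), while RPS6 had a log2 change of 0.03 ± 0.05. Of 9 tested genes of the 20S proteasome core 1 rose (11.1%), PSMA6, by 0.67. Of 22 of its 19S regulator and assembly factors 1 fell (4.55%), PSMG1, by 0.59 ± 0.16. Of 87 genes of splicing and mRNA processing 1 rose and 2 fell. Without GRZ 4 the number that rose was 7 for splicing and 2 for the 19S regulator, the splicing rise was lost without any other library but GRZ 1, and in the fit of all 16 libraries 3 splicing genes rose and 6 fell. Lists of respiratory complex I, the ATP synthase and mitochondrial import had 0 of 6, 0 of 12 and 0 of 28 tested genes past the edgeR threshold, against 0, 2 and 7 at an unadjusted p under 0.05 and 0, 0 and 2 past the threshold in DESeq2. Only 6 of the 45 symbols listed for complex I and 7 of the 19 for the 20S core had a tested gene. For mitochondrial import 1 gene rose without GRZ 2 and 2 without GRZ 4. SQSTM1 (p62), the receptor that hands ubiquitinated proteins to autophagy, rose slightly, to 30.7 ± 3.07 from 22.3 ± 2.53 CPM (log2 change 0.44 ± 0.11, adjusted p = 0.0275). The calls of PSMG1 and SQSTM1 were lost without single libraries, with adjusted p up to 0.0879 for PSMG1 and 0.0767 for SQSTM1. Some other lists had shares above the 8.86% higher or 5.89% lower over all named genes. Of 47 translation factors and tRNA ligases 7 rose (14.9%) and 5 fell (10.6%), or 6 to 8 and 3 to 5 without 1 library. Of 31 glycolysis and pyruvate genes 5 rose (16.1%) and 3 fell (9.68%). No fall was called without MZM-0410 12, 14 or 15 or GRZ 1 or 2. Of 47 nucleotide and one-carbon genes 4 rose (8.51%) and 6 fell (12.8%), or 2 to 4 and 2 to 6 without 1 library.

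Genes of other tissues that a dissected brain can carry were uneven among fish. Of 7 tested genes of the retina and pineal list 1 rose (14.3%) and 1 fell (14.3%), against 8.86% and 5.89% of all named genes. The rise was lost without any 1 MZM-0410 library. The summed level of this list was 242 to 352 CPM in GRZ and 223 to 256 CPM in MZM-0410. A hemoglobin gene with the fish symbol hbae1 and the human name HBG1 was at 6.49, 9.31, 3.53 and 9.94 CPM against 0, 2.39, 1.49 and 0.429 CPM (log2 change 2.51 ± 0.53, adjusted p = 0.0112), while a further gene of the same human name and the fish symbol ba1 was at 131, 274, 147 and 226 CPM against 94.9, 242, 142 and 81.3 CPM and did not pass (adjusted p = 0.397). The summed level of the red blood cell list was 404 to 621 CPM in GRZ and 336 to 527 CPM in MZM-0410. MYLPF, a light chain of fast muscle myosin, was at 80.9, 81.8, 142 and 81.5 CPM against 94.4, 39.6, 32.4 and 16.5 CPM and did not pass (adjusted p = 0.0764), and the muscle list summed to 573.97 to 751 and 537 to 667 CPM. The list of liver-type genes summed to 1212 to 1353 CPM in GRZ and 1426 to 1708 CPM in MZM-0410, with no overlap, and 2 of its 20 tested genes rose and 3 fell, or 5 without GRZ 2. The part of these tissues in the differences between the strains was not tested.

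Duplicated genes allowed copies of one orthologue to be set side by side. Of the human symbols, 621 were carried by 2 or more tested genes, 1348 genes in all. In 136 of these symbols some copies passed the test and others did not. Over all named genes 14.8% passed in either direction. There were 44 pairs of copies in which both passed, and a symbol with several copies can give several pairs. In 38 pairs both copies moved in the same direction and in 6 they moved apart. KLF11, a transcription factor of the Krueppel family, had such a split. One copy was at 66.1, 49.1, 56.8 and 37.6 CPM in GRZ and 31.8, 21.2, 27.9 and 29.8 CPM in MZM-0410 (log2 change 0.94 ± 0.17) and the other at 16.6, 15.3, 15.8 and 11 CPM against 43, 41.6, 40.5 and 32.4 CPM (log2 change -1.43 ± 0.14), and in neither copy did the strains overlap. COL6A2, a chain of collagen VI, also had copies called in opposite directions, with 17.6, 21, 10.9 and 18.5 CPM against 8.14, 9.93, 11.1 and 7.29 CPM for one copy (log2 change 0.88 ± 0.21) and 4.78, 5.7, 7.06 and 7 CPM against 14, 15.9, 11.3 and 19.7 CPM for the other (log2 change -1.32 ± 0.19). GRZ 3 lay within the MZM-0410 range for the first copy, whose call was lost without MZM-0410 11 or 15 (adjusted p = 0.0598 and 0.0586), without GRZ 2 (0.0557) and on thinned counts (0.058). CHN1 (chimaerin), which limits Rac signalling in axons, was at 179, 172, 192 and 210.3 CPM against 97.5, 84.5, 94.5 and 96.7 CPM for one copy (log2 change 1.01 ± 0.07, adjusted p = 8.12e-06). Its other copy was at 48.1, 42.9, 51 and 43.8 CPM against 67.4, 55.8, 56.5 and 56.8 CPM (log2 change -0.35 ± 0.09, adjusted p = 0.0243, and 0.0646 and 0.068 without MZM-0410 11 and GRZ 2). The remaining pairs were of EEF1A1, an elongation factor of translation, with log2 changes of 0.40 ± 0.09 and -0.33 ± 0.08, and of AGAP2, a regulator of small GTPases, with 2 copies lower (-0.38 and -0.25) and 1 higher (0.24). The last 2 AGAP2 calls were each lost without 7 of the 8 libraries in turn. The fall of EEF1A1 was not called without MZM-0410 14 (adjusted p = 0.0549) or GRZ 1 (0.0547).

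On or off differences were rare. With at least 10 reads in each library of one strain and at most 3 reads in all over the other, 10 genes were detected in GRZ only and 1 in MZM-0410 only. None of them carried a name. The rule favoured finds in GRZ, whose libraries were deeper. A total of 3 reads stood for 0.139 CPM in MZM-0410 and 0.0787 CPM in GRZ, and 10 reads were easier to reach in GRZ. The reference also came from GRZ fish, so no conclusion is drawn from the split. Nfu_g_1_020663 had 47 to 58 reads in each GRZ library and 2 reads in the 4 MZM-0410 libraries together, a ratio of 59.6 (95% exact interval 16.3 to 495, for counting error only). This gene had 1 and 5 reads in all in MZM-0410 at 12 and 39 wph. Nfu_g_1_012116 had 31 to 64 reads in each GRZ library against 1 read (ratio 107, interval 18.9 to 4237) and 7 and 4 reads in the older groups. The single gene of the other kind, Nfu_g_1_014076, had 28 to 34 reads in each MZM-0410 library and 1 in GRZ (ratio 218, interval 38.5 to 8697), and 146 and 211 reads in the older groups. A further gene had 32 to 35 reads in each GRZ library and 0 in MZM-0410, and was at least 25.0-fold higher in GRZ with 3 reads over the group as the floor. Of the 10 genes, 4 also stayed at 3 reads or fewer in both older MZM-0410 groups, and none had 10 reads in every older library. Among the genes with changes over 8-fold that passed the test, 30 were higher and 19 lower in GRZ, and 2 and 1 of these had a name.

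The spread among fish of one strain depended on GRZ 4. On counts thinned to the smallest library, the common biological coefficient of variation was 0.119 among the GRZ libraries and 0.0914 among the MZM-0410 libraries. Without GRZ 4 the GRZ value was 0.0955, and without any other single GRZ library it was 0.117 to 0.129. The median of the coefficient of single genes above a log2 CPM of 5 was 0.0908 in GRZ and 0.0744 in MZM-0410, and without GRZ 4 it was 0.0721, below MZM-0410. The difference between the strains was not tested.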

How the data were processed

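Total RNA of killifish brain was sequenced in 16 libraries (TruSeq stranded kit, ribosomal RNA removed, single-end reads). The authors deposited raw read counts per gene, made per the labels and the submitters' processing notes with bcl2fastq 1.8.4, TopHat2 2.1.0 with at most 1 hit per read and featureCounts 1.5.0 without strand, on the Nfu_20150522 genome. Reads with several hits were dropped, which lowers counts of near-identical copies.

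The 4 GRZ and 4 MZM-0410 libraries of 5 wph were compared in edgeR 4.0.16 (R 4.3.3) with TMM factors, the package's filter on low counts and its quasi-likelihood test, two-sided, with Benjamini-Hochberg adjustment over all 17994 genes tested. A gene passed at an adjusted p under 0.05. Log2 changes are GRZ minus MZM-0410, and the SE is the change divided by the square root of F. Levels are CPM with TMM factors over the 16 libraries. The labels do not say that libraries came from separate fish, and p-values measure the spread between these samples. Intervals cover counting error only. The scripts were tested on simulated data.

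The members, gene lists and tests were chosen with earlier results of these data known. Named genes were, among genes with 1 human symbol, past the threshold and without overlap between the strains, in each direction, the 10 of smallest p and the 10 of largest change at an average log2 CPM of at least 1, the 4 members of each described list with the smallest p, copies called in opposite directions, up to 2 unnamed genes each way detected in 1 strain only, and a set of marker genes. Genes outside this rule were chosen after their values were seen or are given as further copies. Not all of them are marked so where they appear, among them ATM, AKT1, IGFBP2, TPX2, CCND1, HOMER1, JUN and NR3C1. Alternatives were other scaling factors, DESeq2 1.42.0, other filters, thinned counts, all 16 libraries in one fit and leaving out each library. Some genes that the rule named are not reported here. Figures were drawn with matplotlib 3.10.9.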

Additional observations from a re-analysis of the deposited data

Results flagged for a closer look

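Each 5 wph group of 4 libraries was searched for a library far from the other 3, over the values given in the report. Of 200 groups, 19 held such a library, and chance gives about 1 in 20 groups. The count cannot be set against that rate, because ABCB11, SULT2A1, CYP27A1 and ARRDC3 were picked as genes in which 1 library stood apart. In GRZ the library apart was GRZ 2 on principal component 2 (-21.9) and in ABCB11 (96.3 CPM), SULT2A1 (16.2 CPM) and CYP27A1 (41.1 CPM), an enzyme of bile acid synthesis. GRZ 4 stood apart in KLF9 (67.8 CPM), one NR1D2 copy (62.8 CPM), DNAJA4 (93.2 CPM), one ARRDC3 copy (490.0 CPM) and Nfu_g_1_020663 (6.55 CPM). GRZ 3 stood apart in FOS (20.9 CPM) and MYLPF (142 CPM), and GRZ 1 in Nfu_g_1_014076 (0.114 CPM, from 1 read).

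Among the MZM-0410 libraries, MZM-0410 12 stood apart in its total (8.24 M reads) and in MYO7A (1.79 CPM). MZM-0410 11 stood apart in ZFP36 (20.9 CPM), CSTA (8.91 CPM), one CHN1 copy (67.4 CPM) and Nfu_g_1_012116 (0.254 CPM, from 1 read), and MZM-0410 15 in SESN1 (63.2 CPM).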

How the results depend on the processing

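Of 160 genes called and named by the rule, none changed direction under an alternative that gave it a value, and 146 had a value with at least 10 counts required in every library and 157 on thinned counts. Other genes were not followed one by one. Of the 160, 113 were also called without each library in turn and 110 under all alternatives that gave them a value.

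Without 1 library at a time, the genes higher in GRZ numbered 599 to 1265 and those lower 456 to 1245, with extremes without MZM-0410 12 and GRZ 4. Genes past 2-fold numbered 203 to 280 and 137 to 201. The coefficient of variation was 0.0955 to 0.129 in GRZ and 0.0877 to 0.0937 in MZM-0410. Among the lists, members that fell numbered 2 to 6 for synaptic transmission, 2 to 7 for ion channels, 0 to 1 for endothelium, 14 to 27 for the cell cycle, 1 to 3 for the DNA damage response, 0 to 1 for lipid synthesis, 0 to 4 for the glucocorticoid response and 1 to 5 for the clock. Members that rose numbered 0 to 2 for ion channels, 5 to 21 for chaperones, 5 to 8 for lipid synthesis and 5 to 8 for the matrix. Fewer samples entered each of these fits.

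With at least 10 counts required in every library, 107 genes passed 2-fold upward and 87 downward, since fewer genes were tested. On counts as deposited the coefficient of variation was 0.137 in GRZ and 0.0948 in MZM-0410. On thinned counts 17 cell cycle, 1 DNA damage response and 2 matrix genes fell. Ion channel genes that rose numbered 2 with DESeq2, 2 with the stricter filter, 1 on thinned counts and 3 in the fit of all 16 libraries. Of the chaperones 1 fell with library totals and 1 in the fit of all 16 libraries. The cause of these shifts was not tested. No paired analysis was possible because the compared groups share no replicate number. Depth was lower in MZM-0410, which limits the calls of genes with few reads.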
